A study of Mus musculus with 18 samples.

Results

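The transcripts of 10 genes of protein folding in the endoplasmic reticulum (ER) were followed in liver: *Hspa5*, *Hsp90b1*, *Pdia4*, *Pdia6*, *Calr*, *Canx*, *Dnajb9*, *Herpud1*, *Sdf2l1* and *Xbp1*. They were chosen by name, as textbook ER chaperones and targets of the unfolded protein response, from 23352 gene symbols, and all 10 were found with a valid estimate in every library. The libraries came from the livers of 18 male mice, 20 weeks old and fed a high-fat diet (HFD). Of these, 9 were wild-type mice (C57BL6 in the series' text) and 9 were *Gpr180*KO mice, made in C57BL/6J eggs and homozygous for a CRISPR/Cas9 deletion in the gene of the G protein-coupled receptor GPR180, which was present in the whole body and not only in liver. Polyadenylated RNA was sequenced, and expression was given as FPKM, the reads of a gene per kilobase of its transcript and of the mapped reads of the library. The comparison asked whether the livers without GPR180 differed from wild-type livers in the genes of ER protein folding under HFD.

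Secreted proteins, which hepatocytes make in large amounts, fold in the ER with the help of chaperones, lectins and disulfide isomerases. When unfolded proteins accumulate, the sensors IRE1, PERK and ATF6 start the unfolded protein response. IRE1 splices the *Xbp1* transcript so that it encodes an active transcription factor, ATF6 is cut to release another, and PERK slows translation, while the transcription factors raise chaperones and the machinery that degrades misfolded proteins. FPKM of a whole gene does not separate spliced from unspliced *Xbp1* and does not measure sensor activation.

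The promoters are shown first, because the ER stress elements that ATF6, NF-Y and XBP1 bind are what several of these genes have in common apart from their function. RefSeq (GRCm38.p6) gave 1 window of 300 bases for each of the 10 genes, from 250 bases before the transcription start to 50 after it. The ER stress element (ERSE), searched on both strands as CCAAT, 9 bases of any kind and CCACG, was found in 5 of the 10 windows, against 0.119% of all 32851 promoter windows and 16 of the 8048 tested genes that have one. The 10 genes were chosen by name as chaperones and targets of the unfolded protein response, so their share describes that choice. Each ERSE is printed with 12 bases on either side, read along the gene's own strand, with the CCAAT and CCACG letters (or ATTGG and CGTGG where the element faces the other way) in capitals.
Hspa5 (chr2:34772013-34772055, plus strand): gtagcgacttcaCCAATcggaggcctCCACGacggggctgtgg
Hsp90b1, distal (chr10:86705626-86705668, minus strand): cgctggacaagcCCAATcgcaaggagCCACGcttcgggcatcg
Hsp90b1, proximal (chr10:86705521-86705563, minus strand): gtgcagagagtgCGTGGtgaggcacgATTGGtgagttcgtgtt
Pdia6 (chr12:17266479-17266521, plus strand): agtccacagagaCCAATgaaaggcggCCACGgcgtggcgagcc
Calr (chr8:84847063-84847105, minus strand): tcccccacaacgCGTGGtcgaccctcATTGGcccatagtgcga
Canx (chr11:50325788-50325830, minus strand): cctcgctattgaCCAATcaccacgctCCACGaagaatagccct

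*Herpud1* held the shorter ERSE-II (ATTGG, 1 base and CCACG), which was present in 0.0365% of all windows. The XBP1 core ACGTGG was found in *Pdia6*, *Dnajb9* and *Herpud1*, where it overlaps the ERSE-II, and in 8.31% of all windows. In the next lines the capitals mark the ERSE-II letters of *Herpud1* and the XBP1 core of *Dnajb9*, which reads CCACGT along the gene.
Herpud1 (chr8:94386365-94386399, plus strand): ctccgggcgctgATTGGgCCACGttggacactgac
Dnajb9 (chr12:44210159-44210188, minus strand): aacaacagttttCCACGTgcgcgtagggcg
None of these 3 elements, as spelled out here, was in the windows of *Pdia4*, *Sdf2l1* or *Xbp1*. A match is a description of the sequence and not a measured binding site.

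The level of *Gpr180* was 6.79 ± 1.99 FPKM (SD, n = 9) with the intact gene, compared to 1.60 ± 0.371 FPKM with the deletion, and the groups did not overlap (lowest wild-type 4.46, highest *Gpr180*KO 1.99). Read totals are not in the tables; the relative depth, from the step between low FPKM values, lay between 44.4% and 100% of the deepest library. The FPKM of *Gpr180*KO replicate 5 summed to 718624, against 503229 to 555800 in the other libraries of both genotypes, so the differences of *Dnajb9*, *Canx*, *Hsp90b1* and *Pdia4*, in which it had the lowest value of all 18 livers, are also given without it. The sample titles come in 2 styles, with the diet at the end (replicates 1 to 4 of each genotype) or in the middle (replicates 5 to 9), and no label says what the styles stand for. The median gene of the 10835 tested (mean FPKM of at least 1) had a log2 difference of -0.13, lower without GPR180, and median-of-ratios scaling of the libraries moved it to 0.02. Differences are therefore given on the FPKM as deposited and after this scaling. All differences are of log2(FPKM + 0.1), *Gpr180*KO minus wild-type, tested with limma and adjusted over all genes tested by Benjamini-Hochberg, with a threshold of 0.05.

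Of the 10 genes, *Dnajb9* fell in *Gpr180*KO livers, none rose, and 9 did not pass the test. The background was 4.28% of all genes called lower and 0.452% called higher. The fall of *Dnajb9* was to 59.4% of the wild-type mean, whereas the means of the other 9 genes lay between 85.2% (*Pdia4*) and 101% (*Pdia6*) of wild-type. The median log2 difference of the 10 genes was -0.15, beside -0.13 for all genes tested, and median-of-ratios scaling gave 0.00, beside 0.02, with 0 of the 10 called, against 2.7% of all genes in either direction. The median of the 10 genes thus lay within 0.03 log2 units of the median of all genes in each scaling, and *Dnajb9* had the largest difference of the 10 in each.

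**Figure D1:**
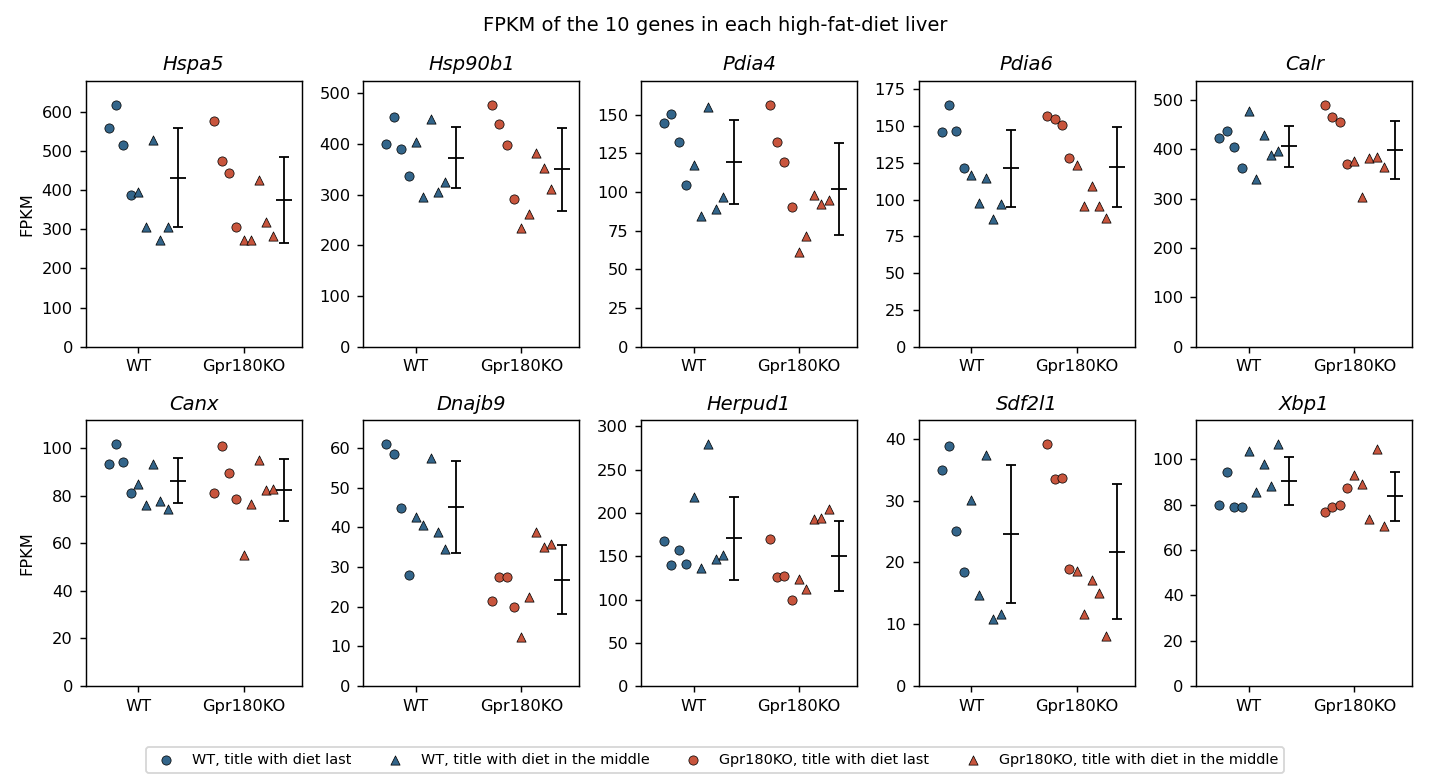
FPKM of each gene (vertical axis, linear, from 0) in each of 9 wild-type (WT, blue) and 9 *Gpr180*KO (red) livers; circles are libraries with the diet last in the title, triangles those with the diet in the middle, and the bars beside the points are the mean ± SD. Points of both genotypes overlap for every gene, with the widest separation for *Dnajb9*, of which 6 of 9 *Gpr180*KO livers lie below the lowest wild-type liver.

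*Dnajb9* encodes ERdj4, a J-domain co-chaperone that works with BiP and is a known target of spliced XBP1. It lies at chr12:44205897-44210068 (GRCm38). In wild-type livers it had an FPKM of 27.9 at the lowest, 42.6 at the median and 60.8 at the highest, and in *Gpr180*KO livers it had 12.5, 27.4 and 38.8 FPKM. Every one of the 9 *Gpr180*KO values was under both the mean and the median of wild-type, and 6 of them were under the lowest wild-type value, but the groups overlapped. The log2 difference was -0.78 ± 0.20 (SE, n = 9 per genotype), with a 95% confidence interval from -1.19 to -0.37 and a limma adjusted p of 0.0311. After median-of-ratios scaling it was -0.63, with an adjusted p of 0.0740, above the threshold, and with 75th percentile scaling -0.66, with 0.0636. The lowest value was that of *Gpr180*KO replicate 5, and without this library the log2 difference was -0.65 (adjusted p = 0.0311). Without wild-type replicates 1, 2 or 6 or *Gpr180*KO replicate 6 the call was lost, with adjusted p of 0.0698, 0.0677, 0.0635 and 0.0599, while the log2 difference stayed between -0.72 and -0.80.

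The fall of *Dnajb9* was also measured within each title style. Among the libraries with the diet last in the title, the 4 *Gpr180*KO livers (19.9 to 27.5 FPKM) lay below the 4 wild-type livers (27.9 to 60.8 FPKM). Among those with the diet in the middle, the 5 *Gpr180*KO livers (12.5 to 38.8 FPKM) overlapped the 5 wild-type livers (34.5 to 57.5 FPKM). The log2 differences were -0.94 (limma adjusted p = 0.0573) and -0.65 (adjusted p = 0.266), and neither passed the threshold alone. The second of these includes *Gpr180*KO replicate 5 (12.5 FPKM), while the other *Gpr180*KO livers of that style had 22.6 to 38.8 FPKM. Neither the difference within that style nor the interaction was computed without replicate 5. The interaction of genotype and title style was 0.29 ± 0.41 (SE, adjusted p = 0.874), and none of the 10 genes had an interaction with an unadjusted p under the threshold. No gene of all 10835 passed the interaction test in limma, although 833 had an unadjusted p under the threshold.

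A ratio within a library is free of its scaling. When each gene was divided by the geometric mean of the other 9, *Dnajb9* lay between -2.21 and -1.43 log2 units in wild-type livers and between -3.13 and -1.63 in *Gpr180*KO livers, with means 0.66 apart. The ratio of each *Gpr180*KO liver was under the median ratio of wild-type, and 5 of them were under the lowest one. *Pdia6* had the next largest shift of this ratio, 0.23 upwards, with 5 *Gpr180*KO livers above the highest wild-type liver. For *Hsp90b1* the shift was 0.09 with 6 *Gpr180*KO livers above the wild-type range, which spanned only 1.58 to 1.80 log2 units. Since the genes form each other's denominators, these ratios show unequal change and not which gene changed.

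**Figure D2:**
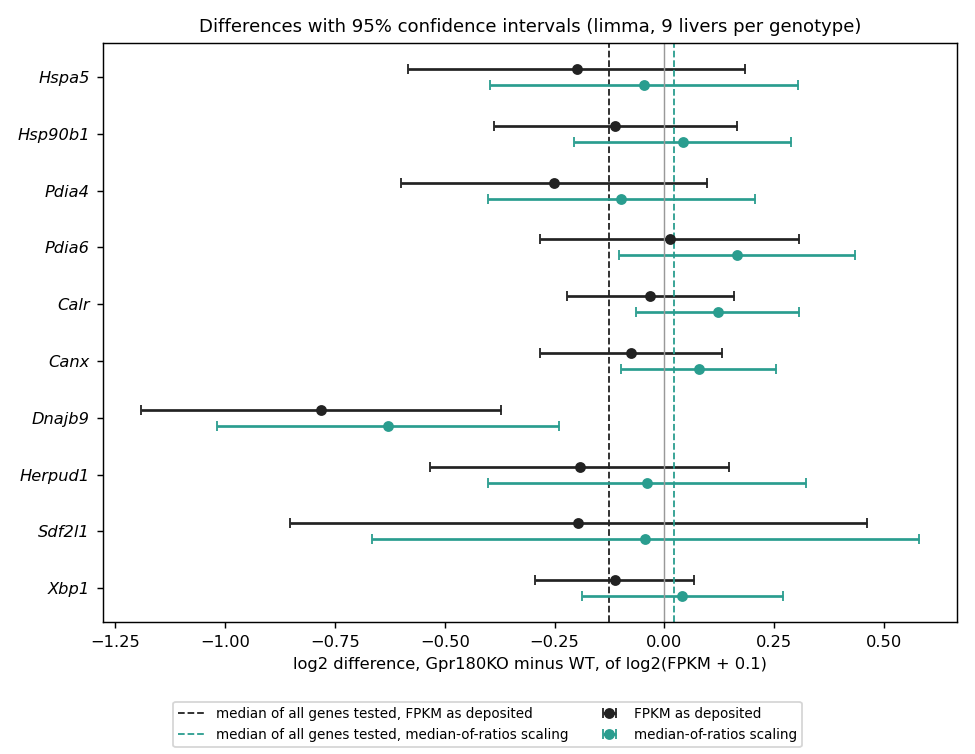
Log2 difference of log2(FPKM + 0.1), *Gpr180*KO minus wild-type (horizontal axis), with 95% confidence intervals from limma, for FPKM as deposited (black) and after median-of-ratios scaling (green); dashed lines mark the median of all genes tested. The interval of *Dnajb9* lies below 0 in both scalings, and those of the other 9 genes include 0.

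BiP (*Hspa5*) is the main ER chaperone of the HSP70 family and holds the sensors inactive, and GRP94 (*Hsp90b1*) is the ER member of the HSP90 family. *Hspa5* (chr2:34772090-34776529) had 272, 396 and 616 FPKM at the lowest, median and highest in wild-type livers and 272, 317.7 and 575 in *Gpr180*KO livers. Its log2 difference of -0.20 had a 95% confidence interval from -0.58 to 0.18 (limma adjusted p = 0.528) and was -0.05 after median-of-ratios scaling, so as deposited values from 66.8% to 113.5% of wild-type were within its error. *Hsp90b1* (chr10:86690841-86705444) had 295, 391 and 453 FPKM in wild-type and 235, 353 and 477 FPKM in *Gpr180*KO livers. The groups of both genes overlapped. The log2 difference of *Hsp90b1* was -0.11 (-0.39 to 0.16, adjusted p = 0.627) as deposited and 0.04 after median-of-ratios scaling, where its sign turned, and without *Gpr180*KO replicate 5 it was -0.04 as deposited. The annotation places a pseudogene, *1810014B01Rik*, on the opposite strand of *Hsp90b1*, with a mean of 1.52 FPKM, and whether reads were counted by strand is not given in the sources used here.

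SDF2L1 is a co-chaperone found in complexes with BiP and its J-domain partners. *Sdf2l1* (chr16:17130138-17132383) was the most variable of the 10 genes, with a coefficient of variation of 46.5% over the 18 livers and a highest value 4.80 times the lowest within *Gpr180*KO livers. It had 10.8, 25.04 and 38.8 FPKM in wild-type and 8.14, 18.6 and 39.1 FPKM in *Gpr180*KO livers at the lowest, median and highest. The spread within each genotype was nearly as wide as that of all libraries. Its log2 difference of -0.20 therefore had the widest interval, from -0.85 to 0.46 (limma adjusted p = 0.723), was -0.04 after median-of-ratios scaling, and a change of the size seen in *Dnajb9* could not be told from none.

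Calreticulin (*Calr*) and calnexin (*Canx*) are the soluble and the membrane-bound lectin chaperone that hold glycoproteins during folding. *Calr* (chr8:84842088-84846931) was the steadiest gene, with a coefficient of variation of 12.3%, and had 339, 403 and 477 FPKM in wild-type and 304, 382 and 489 FPKM in *Gpr180*KO livers. The difference of *Calr* was -0.03, with an interval from -0.22 to 0.16 (limma adjusted p = 0.851) whose lower bound was 85.8% of wild-type. *Canx* (chr11:50293957-50325673) had 74.4, 84.9 and 101 FPKM in wild-type and 55.1, 82.4 and 101 FPKM in *Gpr180*KO livers. The lowest of these was *Gpr180*KO replicate 5, and the remaining *Gpr180*KO livers lay within the wild-type range. The difference of *Canx* was -0.08 (-0.28 to 0.13, adjusted p = 0.662), and without that library it was -0.01 (-0.16 to 0.15, adjusted p = 0.976). Both lectins turned to a positive sign after median-of-ratios scaling, 0.12 for *Calr* and 0.08 for *Canx*.

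ERp72 (*Pdia4*) and P5 (*Pdia6*) are disulfide isomerases, which form and rearrange the disulfide bonds of secreted proteins. *Pdia4* (chr6:47796141-47813512) had 84.7, 117 and 155 FPKM in wild-type and 61.4, 94.8 and 156 FPKM in *Gpr180*KO livers, and the wild-type mean exceeded 7 of the 9 *Gpr180*KO livers. With -0.25 (-0.60 to 0.10, limma adjusted p = 0.379) it had the largest difference after *Dnajb9* as deposited, within the spread of the livers, but -0.10 after median-of-ratios scaling, where *Pdia6* and *Calr* differed by more, and -0.17 without *Gpr180*KO replicate 5. *Pdia6* (chr12:17266595-17284770) had 86.9, 116 and 164 FPKM in wild-type and 87.7, 123 and 156 FPKM in *Gpr180*KO livers. Its ranges nearly coincided, and the difference was 0.01 (-0.28 to 0.31, adjusted p = 0.968) as deposited and 0.16 after median-of-ratios scaling (-0.10 to 0.43, adjusted p = 0.545).

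HERP (*Herpud1*) is a membrane protein that organizes ER-associated degradation, in which misfolded proteins are passed to the proteasome. *Herpud1* (chr8:94386500-94395358) had 137, 151 and 279 FPKM in wild-type and 99.1, 127 and 205 FPKM in *Gpr180*KO livers. Of the *Gpr180*KO livers 5 were below the lowest wild-type value and the others were inside the wild-type range. The difference of *Herpud1* was -0.19 (-0.53 to 0.15, limma adjusted p = 0.488) and -0.04 after median-of-ratios scaling. *Xbp1* (chr11:5520641-5525993), the transcription factor of the IRE1 branch, had 79.1, 88.0 and 107 FPKM in wild-type and 70.4, 79.6 and 105 FPKM in *Gpr180*KO livers. The total *Xbp1* transcript differed by -0.11 (-0.29 to 0.07, adjusted p = 0.445), its sign turned with median-of-ratios scaling (0.04) and 75th percentile scaling (0.01), and 4 *Gpr180*KO values were lower than any in wild-type.

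FPKM is per length, so the levels of the genes may be ordered. By wild-type means the order was *Hspa5* (432 FPKM), *Calr* (406), *Hsp90b1* (373), *Herpud1* (171), *Pdia6* (121), *Pdia4* (119), *Xbp1* (90.5), *Canx* (86.3), *Dnajb9* (45.1) and *Sdf2l1* (24.6). *Hspa5* exceeded *Calr* in 5 of 9 wild-type and 3 of 9 *Gpr180*KO livers and *Xbp1* exceeded *Canx* in 5 and 4, so these neighbours are not ordered. *Hsp90b1* was above *Herpud1*, and *Canx* above *Dnajb9*, in all 9 livers of each genotype. At the bottom of the order the genotypes differed in count, as *Dnajb9* exceeded *Sdf2l1* in 9 of 9 wild-type livers and in 5 of 9 *Gpr180*KO livers.

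**Figure D3:**
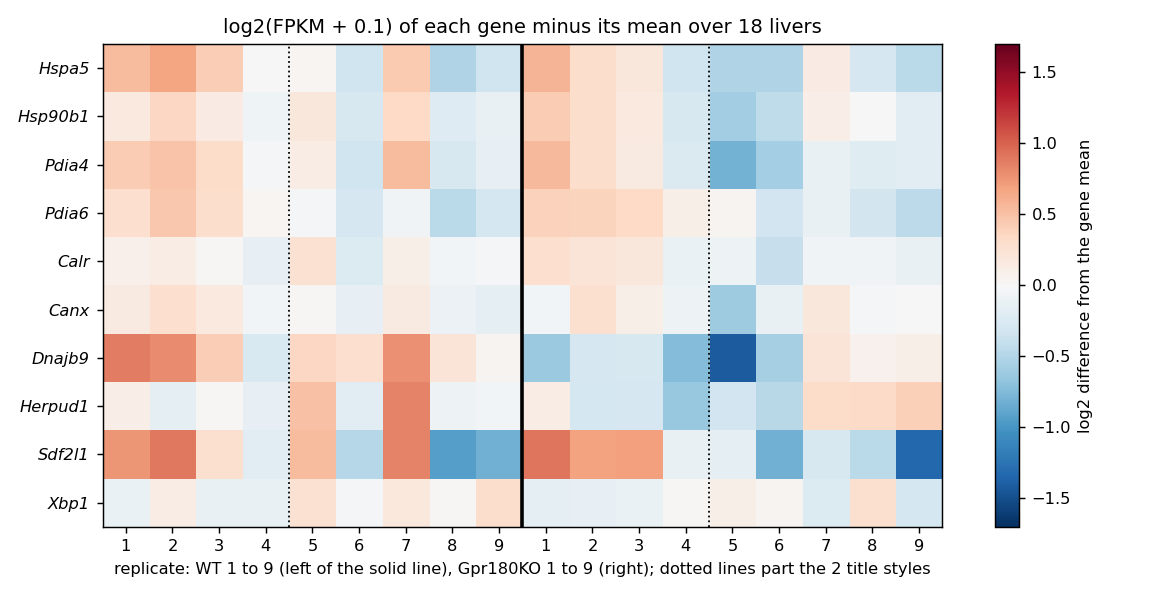
Log2(FPKM + 0.1) of each gene minus its mean over the 18 livers (colour, red above and blue below the mean), with livers in columns. The chaperone genes *Hspa5*, *Hsp90b1*, *Pdia4* and *Sdf2l1* share their high and low livers within both genotypes, and *Dnajb9* is blue in *Gpr180*KO replicates 1 to 3, where those genes are red.

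Most of the genes varied together from liver to liver. With the genotype means removed, the Pearson correlation of log2 values across the 18 livers was above 0 in 37 of 45 pairs, with a median of 0.49 and a range from -0.36 to 0.96. *Hspa5*, *Hsp90b1*, *Pdia4* and *Sdf2l1* had 0.77 to 0.96 in their 6 pairs, and the highest value was that of *Hsp90b1* and *Pdia4*. *Pdia6* was closest to *Sdf2l1* (0.89), and *Dnajb9* to *Canx* (0.79), while its correlation with *Pdia6* was 0.01. *Xbp1* stood outside, with a median of -0.19 over its 9 pairs. The values of a pair come from the same libraries and share their scaling and title style. With the means of the title styles removed as well, the median of the 45 pairs was 0.63, *Dnajb9* and *Canx* reached 0.92, and *Herpud1*, which had 0.36 with *Pdia4*, reached 0.90. The 6 pairs of *Hspa5*, *Hsp90b1*, *Pdia4* and *Sdf2l1* then had 0.63 to 0.96, and those with *Herpud1* in place of *Sdf2l1* 0.76 to 0.96. After median-of-ratios scaling, with only the genotype means removed, the median of the 45 pairs was 0.44 and 36 were above 0. Pairs of other genes were not measured as a background.

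**Figure D4:**
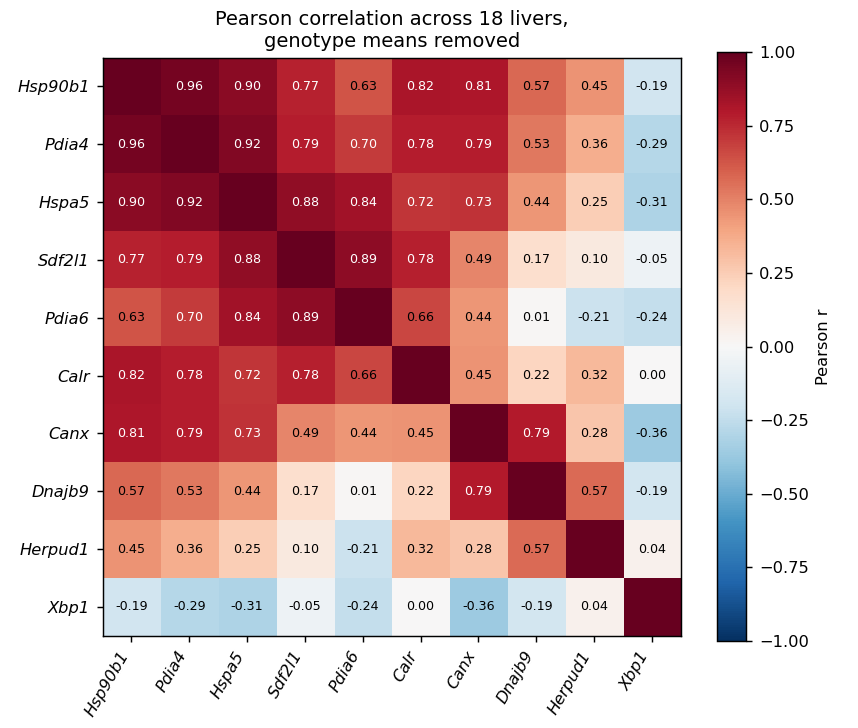
Pearson correlation (colour and printed value) of log2(FPKM + 0.1) between each pair of the 10 genes across 18 livers after the mean of each genotype was removed. The order of the genes was set by hand. At the upper left *Hsp90b1*, *Pdia4*, *Hspa5*, *Sdf2l1* and *Pdia6* have 0.63 to 0.96 with each other, and *Calr* has 0.66 to 0.82 with them. *Canx* has 0.73 to 0.81 with *Hsp90b1*, *Pdia4* and *Hspa5*, and the row of *Xbp1* is near or below 0.

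The tested genes outside the 10 whose levels were most like the mean of their standardized log2 values, by the same measure over 18 livers, were *Pdia3* (0.92), *Hsp90ab1* (0.90), *Hyou1* (0.89), *Trmt10a* (0.89), *Dnajb11* (0.88) and *Syvn1* (0.87), beside a median of 0.17 over all tested genes outside the 10. *Pdia3* encodes a disulfide isomerase that works with both lectins, *Hyou1* and *Dnajb11* encode partners of BiP, *Syvn1* the ubiquitin ligase of ER-associated degradation, and *Hsp90ab1* a cytosolic chaperone. After median-of-ratios scaling the 6 values lay between 0.78 (*Hyou1*) and 0.90 (*Pdia3*). When each of the 10 genes was set against the mean of the other 9, so that its own values did not enter, *Hsp90b1* (0.96) and *Pdia4* (0.92) had the highest values, and *Dnajb9* (0.49), *Herpud1* (0.33) and *Xbp1* (-0.22) the lowest.

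The levels of the 10 genes were also compared between the styles of the sample titles, a comparison chosen after the values were seen. In the limma fit with genotype and title style, 4 of the 10 genes were lower in the libraries with the diet in the middle, against 19.1% of all genes. The log2 differences were -0.88 for *Sdf2l1* (adjusted p = 0.0188), -0.53 for *Hspa5* (0.0140), -0.52 for *Pdia6* (0.000489) and -0.44 for *Pdia4* (0.0265). *Pdia6* had 122 to 164 FPKM in the wild-type livers with the diet last and 86.9 to 116 FPKM in those with the diet in the middle, and its *Gpr180*KO livers were likewise apart, with 128 to 156 and 87.7 to 123 FPKM. After median-of-ratios scaling *Pdia6* (adjusted p = 0.00838) and *Sdf2l1* (0.0449) remained called, against 7.94% of all genes. *Dnajb9* did not follow the title style (0.02, adjusted p = 0.949). Each genotype holds both styles in the same numbers.

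The wider machinery of the ER was measured with 6 lists, chosen like the 10 genes with earlier results known, and 86 tested genes outside the 10. In them 2 genes fell and none rose, against 4.28% and 0.452% of all genes, their median log2 difference was -0.12, and median-of-ratios scaling gave 0.04 with 2 genes called, against 2.7% of all genes. None of the 13 further ER chaperones and co-chaperones was called (median -0.09), with the lowest unadjusted p for *Dnajc10* (-0.37, adjusted p = 0.0895) and *Hspa13* (-0.40, 0.101). None of 14 oxidoreductases and prolyl isomerases passed (-0.04; *Pdia5* 0.22 and *Ero1l* -0.23), nor did any of 11 genes of glycoprotein quality control and export (-0.09; *Uggt1* -0.23 and *Sec23b* -0.32). For ER-associated degradation 0 of 18 passed (-0.12; *Os9* 0.20 and *Ubxn4* -0.27), but *Os9*, a lectin of this pathway, was called higher after median-of-ratios scaling (0.35, adjusted p = 0.0254). For the translocon and signal peptide processing 0 of 16 passed (-0.13; *Ssr3* -0.29 and *Srpr* -0.19).

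Both genes that fell belong to the list of sensors and factors of the unfolded protein response, 2 of 14 tested beside the 4.28% of all genes called lower, and its median was -0.26, and -0.10 after median-of-ratios scaling. *Eif2ak3*, which encodes the sensor PERK, had 4.21, 6.66 and 8.44 FPKM at the lowest, median and highest in wild-type livers and 2.28, 3.66 and 5.33 FPKM in *Gpr180*KO livers. The groups overlapped. The log2 difference of *Eif2ak3* was -0.72 ± 0.16 (SE; limma adjusted p = 0.0215) and -0.57 after median-of-ratios scaling (adjusted p = 0.0289). *Nfyb*, a subunit of the CCAAT-binding factor NF-Y, had a difference of -0.34 (adjusted p = 0.0407) that was -0.19 after median-of-ratios scaling (adjusted p = 0.161). The largest difference of the list was that of *Creb3l2*, -0.76, which did not pass (adjusted p = 0.0553). After median-of-ratios scaling it was -0.61 (adjusted p = 0.102). The other sensors did not pass: *Ern1*, which encodes IRE1, had -0.28 (adjusted p = 0.615) and *Atf6* -0.28 (0.290).

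Downstream of PERK, 0 of 8 tested genes of the ATF4 branch passed (median -0.18, and -0.03 after median-of-ratios scaling). *Atf3*, a stress-induced repressor, had 0.863, 2.85 and 6.52 FPKM in wild-type and 0.574, 0.980 and 2.14 FPKM in *Gpr180*KO livers, a difference of -1.16 with an adjusted p of 0.0599 in limma. *Fgf21*, a hormone of the liver, had -0.61 (0.197). *Atf4* (-0.02), the main factor of the branch, and *Ddit3* (-0.22), which ATF4 activates, had adjusted p of 0.870 and 0.657. Among 17 chaperones of cytosol and mitochondria none passed, with a median of -0.07, and 0.08 after median-of-ratios scaling. *Hspa8* had -0.32 and *Hspa4l* -0.43.

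**Figure D5:**
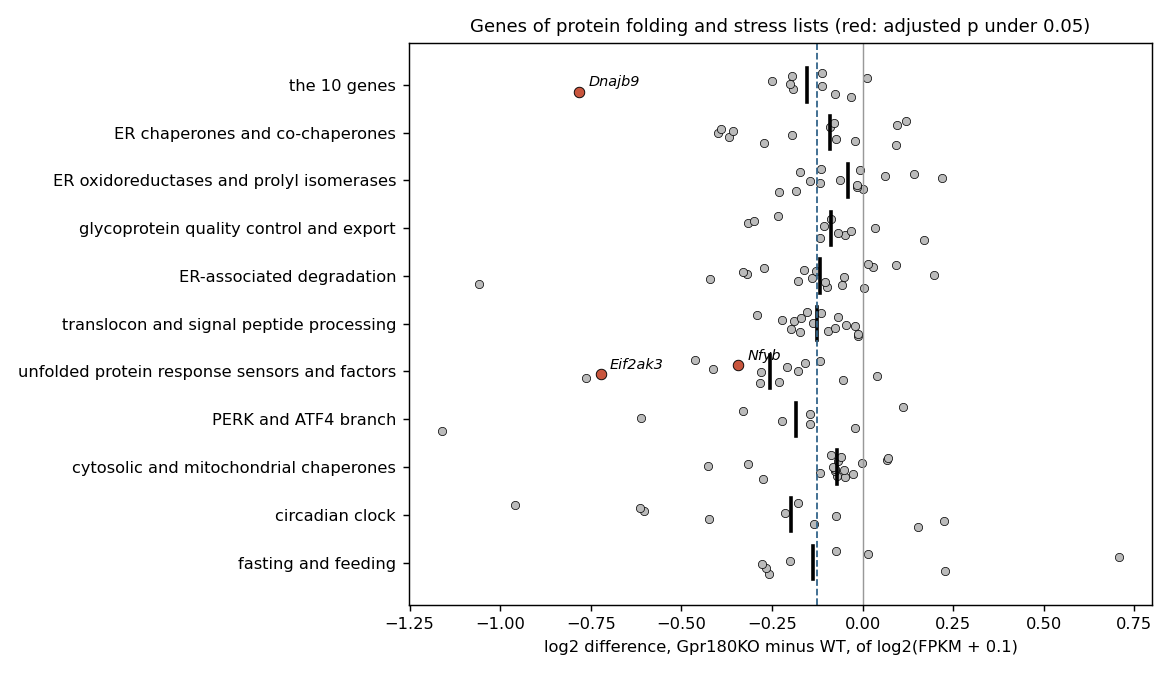
Log2 difference, *Gpr180*KO minus wild-type (horizontal axis), of every tested gene (points) in each list; black bars are list medians, the dashed line is the median of all genes tested, and red points have an adjusted p under 0.05. *Dnajb9*, *Eif2ak3* and *Nfyb* are the called genes among these lists.

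The 16 tested genes whose promoter held an ERSE included 5 of the 10 and 11 others. None of the 16 was called by limma in the comparison of genotypes, beside 4.28% of all genes called lower and 0.452% called higher. With shares this small, the lack of a call among 16 genes does not set them apart. The 11 others had a median log2 difference of -0.27, beside -0.13 for all genes tested. They ranged from -1.06 (*Derl3*, adjusted p = 0.394) to 0.55 (*Xlr3a*, adjusted p = 0.549). After median-of-ratios scaling their median was -0.12, beside 0.02 for all genes, and they ranged from -0.93 to 0.69. *Dnajb9*, with the XBP1 core shown above, is not among these 16 genes.

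In bulk liver RNA, fewer cells of a type and less RNA per cell cannot be told apart. Hepatocyte markers were abundant in every library (*Apoa1* 6268 to 17634, *Ttr* 3153 to 7260 and *Serpina1c* 2382 to 6163 FPKM). Of the 10, 1 was called higher in *Gpr180*KO livers, *Serpina1c* (0.52, limma adjusted p = 0.0436), beside 0.452% of all genes called higher. Of the markers of stellate cells and fibroblasts 6 of 10 were called lower, beside 4.28% of all genes as deposited, a share that also applies to the lists below. Their summed level was 147 to 300 FPKM in wild-type livers, against 83.1 to 149.5 FPKM without GPR180. The called genes were *Pdgfrb* (-0.82), *Col1a1* (-1.99), *Col1a2* (-1.63), *Col3a1* (-1.73), *Dcn* (-0.68) and *Lum* (-1.41). The first 3 genes of this list were not called: *Lrat* had -0.31 (adjusted p = 0.446), *Reln* -0.56 (0.0657) and *Des* -0.08 (0.812). Of the macrophage markers 2 of 9 tested were called lower (sum 184 to 486 against 220 to 315 FPKM), *Cd68* with -0.69 (0.0257), while *Emr1* had -0.29 (0.457) and *Clec4f* 0.16 (0.573). Of the cholangiocyte markers 2 of 3 tested were called lower (sum 48.1 to 232 against 22.0 to 55.6 FPKM). After median-of-ratios scaling 1 was called lower, beside 2.7% of all genes called in either direction. Most of the sum of this list was *Spp1*, with 36.8 to 223 against 14.9 to 47.7 FPKM. As deposited, *Spp1* (-1.96, adjusted p = 0.00701) and *Sox9* (-0.70, 0.0454) were the called genes. The first 3 genes of the list, *Krt7*, *Krt19* and *Epcam*, did not exceed 2.65 FPKM. The part of these cell types in the difference of *Dnajb9* was not tested.

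None of 10 endothelial markers was called (sum 119 to 187 against 107 to 170.2 FPKM; *Pecam1* -0.23, *Cdh5* -0.29 and *Stab2* -0.20). Plasma cells hold a large ER, but of their markers *Igj* did not exceed 0.889 FPKM and *Mzb1* 0.482 FPKM, and *Sdc1*, which hepatocytes express too, was at 53.3 to 107 FPKM in all libraries. The sum of that list (143 to 204 against 146 to 195 FPKM) includes *Xbp1* itself, and 0 of 3 tested were called. The lymphocyte markers *Cd3e*, *Cd3d* and *Cd8a* did not exceed 0.531 FPKM (list sum 4.59 to 10.9 against 3.60 to 6.75 FPKM, 0 of 1 tested called). Of the adipocyte list 0 of 2 tested were called (sum 19.3 to 82.5 against 17.5 to 115 FPKM), *Plin1* was listed at 0 in all libraries, and *Adipoq* and *Lep* did not exceed 0.0897 FPKM.

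Genes of the circadian clock and of fasting and feeding were followed in the same way. Of 10 tested clock genes none was called (median -0.20, and -0.04 after median-of-ratios scaling), with -0.61 for *Per2* (limma adjusted p = 0.0950) and -0.96 for *Per3* (0.135). Of 8 genes of fasting and feeding none was called (median -0.14, and 0.01 after median-of-ratios scaling), with 0.71 for *Pck1* (adjusted p = 0.0613). After median-of-ratios scaling *Pck1*, a gene of gluconeogenesis, was called higher (0.86, adjusted p = 0.0471). The time of sampling and the feeding state of each mouse are not in the labels, and their part in the difference of *Dnajb9* was not tested.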

How the data were processed

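Liver poly(A) RNA of 9 wild-type and 9 *Gpr180*KO mice fed HFD was analysed. TruSeq libraries were made by the authors, who deposited FPKM values per gene and mouse. The submitters' processing notes name TopHat and mm10 (GRCm38). The program that computed FPKM, its annotation and strand setting are not given in the sources used here. Tables held 23847 rows. Rows of a symbol (252 symbols) were summed, and 24 genes with failed estimates (190 values, all 0) were dropped. Without counts in the tables, only relative depth could be estimated and no count test was run.

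Comparisons covered genes whose mean FPKM reached 1 and were made on log2(FPKM + 0.1) with limma 3.58.1 (lmFit, eBayes with trend) in R 4.3.3, all 18 libraries, no covariate, with Benjamini-Hochberg adjustment. Each p-value sets the genotype difference against the spread between mice of the same genotype, which here includes the difference between title styles. In simulated data of 10835 genes with 200 changed by 1 log2 unit, 91.5% were recovered and 3.68% of the genes called were unchanged. Recovery of smaller differences, such as the -0.78 of *Dnajb9*, was not tested. Whether these 2 rates hold for the liver libraries was not tested either. Alternatives were pseudocounts, FPKM minimums, scalings, title style as a block or alone, eBayes options, weights and each library left out. The 10 genes and all lists were chosen with earlier results of these data known. Named genes were the 10, *Gpr180*, from each list those with the largest called differences or otherwise the lowest p, the 6 most alike and 3 markers per cell type; 1 of these is not reported here. *Ern1*, *Atf6*, *Creb3l2*, *Atf4*, *Ddit3*, *Derl3*, *Xlr3a*, *Spp1*, *Sox9*, *Pdgfrb*, *Col1a1*, *Col1a2*, *Col3a1*, *Dcn* and *Lum* were added after their values were seen. Promoters were RefSeq windows, matched by symbol, and gene overlaps came from GENCODE M21. *Trac* and *Ciart* were not matched in the tables. Python 3.11.15 was used for other steps.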

Additional observations from a re-analysis of the deposited data

Results flagged for a closer look

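Of 20 groups of 9 values (10 genes in 2 genotypes), 1 had a value far from the others. *Canx* in *Gpr180*KO replicate 5 was at 55.1 FPKM, and its gap to the next liver on the log2 scale was 0.542 of the range of the group, above Dixon's 95% critical value for 9 values. Chance flags about 1 in 20 such groups. The same library had the highest FPKM sum of the 18. No interaction of genotype and title style was called among the 10 genes.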

How the results depend on the processing

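No paired analysis was possible because the replicate numbers only name mice in accession order. *Dnajb9* kept its direction in 32 of 32 alternatives (-0.94 to -0.63) and was called in 23 of them (adjusted p 0.00333 to 0.266). The number of the 10 genes called lower was 0 instead of 1 with median-of-ratios scaling (also with title style as a block, added after seeing the data), with 75th percentile scaling and in each title style alone, and 0 to 1 when each library was left out. No other gene of the 10 was called under any alternative. *Hspa5*, *Pdia4* and *Herpud1* kept their sign in all 32, and the other 6 turned sign in 1 to 9, none of them called. The median difference of the 10 genes ranged from -0.20 to -0.09 with each library left out and was 0.00 with median-of-ratios scaling, beside -0.15 as deposited. Of all genes, 513 were called, against 238 with a minimum mean FPKM of 5, 293 with median-of-ratios and 282 with 75th percentile scaling, 1153 with title style as a block, 0 with the diet-in-the-middle libraries alone (2019 with an unadjusted p under 0.05), 1331 with library weights, and 132 (without wild-type replicate 6) to 922 (without wild-type replicate 9) with a library left out. As deposited 464 of the calls were lower and 49 higher; after median-of-ratios scaling 147 and 146. The cause was not tested. The absence of counts limits statements on low genes such as *Atf3*.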
